A study of Sus scrofa with 9 samples.

Results

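The nuclear lamina and the LINC complex (linker of nucleoskeleton and cytoskeleton) were followed through 10 genes of the 19535 gene rows in the count table. The members were chosen by symbol, as the lamins LMNA, LMNB1 and LMNB2, the inner nuclear membrane proteins LBR and EMD, the SUN proteins SUN1 and SUN2, and the nesprins SYNE1, SYNE2 and SYNE3. All 10 had enough counts for testing, among 13662 genes that did. Porcine aortic valve interstitial cells (PVICs) from wild type pigs of 4 to 5 months of age were grown in DMEM (control), osteogenic induction medium (OIM), or OIM that also held basic fibroblast growth factor at 50 ng/mL (bFGF), with 3 RNA-seq libraries per group. OIM held sodium dihydrogen phosphate at 2 mmol/L, ascorbic acid at 50 µg/mL and insulin, so the bFGF cells received these agents as well. The labels give 3 days of treatment, and the methods of the study give a shorter time. The cells were isolates from valve leaflets whose endothelial surface had been scraped away, and the methods of the study give cells of generation 3 or 4. Neither source says whether the libraries of a group came from separate animals or cultures. The p-values therefore measure only the spread between these libraries, which may be technical.

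The lamina is a meshwork of intermediate filaments under the inner nuclear membrane. LMNA encodes lamins A and C by alternative splicing, whereas LMNB1 and LMNB2 encode the B-type lamins, which stay anchored to the membrane by a farnesyl group. SUN proteins span the inner membrane and hold the KASH domains of nesprins in the outer membrane, and the nesprins reach actin, microtubule motors or, for nesprin-3, the cytolinker plectin, so that force on a mesenchymal cell such as the PVIC is passed to its nucleus.

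The gene counts summed to between 57075793 and 64723837 in a control library, 57682710 and 67371523 in an OIM library, and 46773376 and 48270827 in a bFGF library. Levels are given as CPM, a gene's counts relative to the library size in units of 1000000, with library sizes scaled by TMM. The labelled cell type was checked against its markers. The 12 valve interstitial and fibroblast genes summed to 80729 to 87087 CPM in control and 78043 to 81138 CPM in OIM. In bFGF the sum was 49594 to 50608 CPM. Against OIM, 3 of the 12 were called higher in bFGF and 5 lower (edgeR), beside 17.7% and 18.4% of all genes. VIM stood at 6248, 5695 and 9008 CPM and PDGFRA at 2278, 1787 and 1715 CPM on average in control, OIM and bFGF, while the 5 cardiac genes in the table summed to at most 3.67 CPM in any library. Of these, TNNT2 and NPPA had 0 counts throughout, and TNNI3 averaged 1.94 CPM in OIM and 2.86 CPM in bFGF and was called higher there (log2 fold change 0.56, adjusted p = 0.0468 in edgeR), but not without OIM replicate 2. The 10 endothelial markers summed to 74.1 to 76.1 CPM in control, 88.4 to 90.2 CPM in OIM and 171 to 180 CPM in bFGF, and ERG held most of that sum. In bFGF against OIM, 7 of the 10 were called higher in edgeR and 0 lower, beside 17.7% and 18.4% of all genes. Without OIM replicate 2, 6 were called higher. KDR, CLDN5 and EMCN, among the 7, were low, averaging 0.169, 0.060 and 0.996 CPM in OIM. In bFGF they averaged 1.17, 0.336 and 2.95 CPM. The defining endothelial gene PECAM1 rose from 11.8 to 20.7 CPM and CDH5 from 5.80 to 8.24 CPM (log2 fold changes 0.81 and 0.51). The part of such cells in the results on the 10 genes was not tested. OIM replicate 2 stood apart from the other OIM libraries. A list of 26 proliferation genes summed to 1470 CPM in it, against 1105 and 1079 CPM in OIM replicates 1 and 3, 1000 to 1037 CPM in control and 3869 to 4005 CPM in bFGF. It was the highest OIM library for 26 of the 26 proliferation genes, for 8 of the 10 lamina and LINC genes, and for 36.1% of all genes tested.

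A gene was called when its adjusted p was at most 0.05 (edgeR's quasi-likelihood F test, adjusted by Benjamini-Hochberg over all genes tested) and its absolute log2 fold change was at least 0.5. Between bFGF and OIM, LMNB1, LMNB2, LBR, SYNE2 and SYNE3 rose and SYNE1 fell. The other 4 genes, LMNA, EMD, SUN1 and SUN2, stayed under the fold limit. Over all genes tested 17.7% were called higher and 18.4% lower. The median log2 fold change of the 10 genes was 0.58, against -0.0029 for all genes tested. At the adjusted p alone 10 of the 10 differed, where 67.4% of all genes did, and in 10 of 10 the libraries did not overlap, as in 72.1% of all genes, so these latter counts say little about the 10 genes in particular. In bulk RNA, fewer cells of a type and less RNA per cell cannot be told apart.

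**Figure D1:**
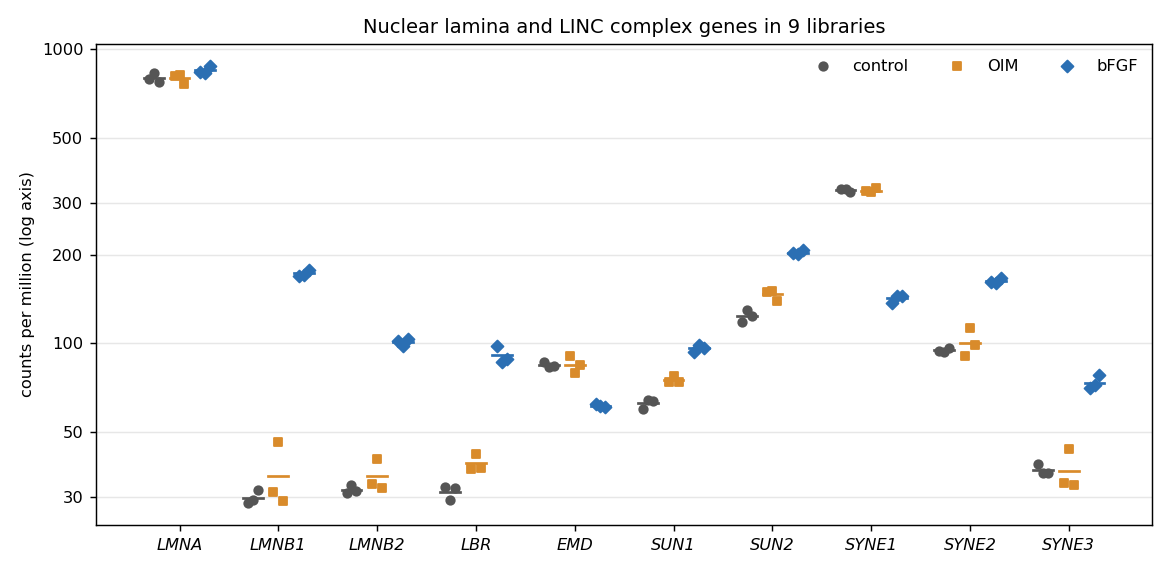
CPM (log axis) of the 10 genes in each of the 9 libraries, with a horizontal line at the mean of each group of 3. LMNB1, LMNB2, LBR, SUN1, SUN2, SYNE2 and SYNE3 lie higher in the bFGF libraries, SYNE1 and EMD lie lower, and LMNA lies between 765 and 879 CPM in all 9.

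LMNB1 (chr2:129807228-129862211 of Sscrofa11.1, plus strand), a B-type lamin, had the largest difference. It stood at 28.6, 29.3 and 31.7 CPM in control replicates 1 to 3, at 31.2, 46.1 and 29.0 CPM in OIM and at 170.2, 171 and 178 CPM in bFGF. All bFGF libraries lay above all others, and control and OIM overlapped. LMNB1 was 4.87-fold higher in bFGF than in OIM (log2 fold change 2.28, standard error 0.11, adjusted p = 1.88e-13 in edgeR). Without OIM replicate 2, the log2 fold change was 2.54. Only 3.89% of the genes tested had a larger absolute log2 fold change.

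LMNB2 (chr2:76125932-76146564, plus strand), the other B-type lamin, had 30.9, 33.0 and 31.5 CPM in control, 33.4, 40.4 and 32.2 CPM in OIM and 102, 97.9 and 104 CPM in bFGF. The bFGF libraries were set apart, and OIM replicate 2 was the highest of the other 6. The gene was 2.86-fold higher in bFGF than in OIM (log2 fold change 1.52, standard error 0.065, adjusted p = 5.59e-14 in edgeR).

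LMNA (chr4:93899019-93927255, minus strand), which encodes the A-type lamins, was measured at 791, 833 and 778 CPM in control, 811, 819 and 765 CPM in OIM and 836, 831 and 879 CPM in bFGF. The 3 groups were close, although every bFGF library exceeded the OIM libraries. The log2 fold change between bFGF and OIM was 0.089 (95% confidence interval 0.010 to 0.17, adjusted p = 0.0430 in edgeR), below the fold limit. With single libraries left out in turn, that adjusted p in edgeR ran from 0.00297 to 0.221. With library totals in place of TMM the log2 fold change was 0.31 (adjusted p = 2.87e-07 in edgeR), also below the limit. The median of all genes was then 0.22.

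LBR (chr10:13389896-13416831, minus strand) encodes the lamin B receptor, which binds B-type lamins and heterochromatin and also carries sterol reductase activity. Its levels were 32.6, 29.3 and 32.2 CPM in control, 37.5, 42.1 and 37.6 CPM in OIM, and 98.2, 86.7 and 88.8 CPM in bFGF. The groups did not overlap and were ordered control, OIM, bFGF. LBR was 2.33-fold higher in bFGF than in OIM (log2 fold change 1.22, standard error 0.060, adjusted p = 4.48e-13 in edgeR).

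EMD (chrX:124883047-124885429, minus strand) encodes emerin, a LEM-domain protein that binds lamins and the chromatin protein BANF1. It stood at 86.4, 82.9 and 83.8 CPM in control, 90.4, 79.5 and 84.2 CPM in OIM and 62.1, 61.5 and 60.7 CPM in bFGF. The bFGF libraries were the lowest 3 of the 9. The log2 fold change between bFGF and OIM was -0.46 (standard error 0.047, adjusted p = 3.07e-08 in edgeR), just under the fold limit, so EMD was not called.

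The 250 bases before the annotated start were read from Sscrofa11.1 for 9 of the genes and searched on both strands for 6 short motifs, of which TTTGAA is a core of the cell cycle genes homology region found upstream of many mitotic genes and CCAAT is the box bound by NF-Y. LMNB1 was the 1 of 9 with TTTGAA, which 12.5% of 19472 such windows held, and it also held CCAAT, a pair found in 4.19% of the windows. Its window is shown because LMNB1 had the largest difference and holds the pair, a choice made after the matches had been seen. Capitals mark TTTGAA and CCAAT on either strand, so CCAAT on the reverse strand appears as ATTGG. The window is chr2:129806978-129807227 (plus strand), written 5′ to 3′ along the gene.
LMNB1: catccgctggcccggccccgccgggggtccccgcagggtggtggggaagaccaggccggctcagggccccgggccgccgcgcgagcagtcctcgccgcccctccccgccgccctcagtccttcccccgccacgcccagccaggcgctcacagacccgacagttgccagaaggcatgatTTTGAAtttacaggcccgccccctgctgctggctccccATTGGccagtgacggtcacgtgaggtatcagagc

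In LMNB1 the TTTGAA begins 72 bases before the annotated start, and the CCAAT match on the reverse strand begins 34 bases before it. Of the other 8 genes searched, LMNB2, SYNE2 and SYNE3 also rose and held neither motif. CCAAT was also present upstream of SUN1 and EMD, which makes 3 of the 9 genes, against 31.9% of the windows. GGGCGG, the GC box, was found in 7 of the 9 genes and in 45.9% of the windows. TTCGAA (1.64% of the windows) and the E2F-type letters TTTCCCGC (1.43%) and TTTGGCGC (0.575%) were found in 0 of the 9. A match is a description of the letters and not evidence of a bound factor.

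SUN1 (chr3:485980-532974, plus strand), an inner membrane partner of the nesprins, had 59.8, 64.0 and 63.9 CPM in control, 74.2, 77.3 and 73.9 CPM in OIM and 93.6, 98.5 and 96.5 CPM in bFGF. Each group lay wholly above the one before. Between bFGF and OIM the log2 fold change was 0.36 (standard error 0.043, adjusted p = 3.66e-07 in edgeR), under the fold limit.

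SUN2 (chr5:9273136-9293258, plus strand), its paralog, followed the same order. The study reports SUN2 among the genes significantly upregulated in OIM against control. Here its log2 fold change in that comparison was 0.24 in edgeR and 0.25 in DESeq2, under the fold limit, so it was not called. The libraries held 118, 129 and 124 CPM in control, 149.9, 151 and 139 CPM in OIM and 203, 201 and 207 CPM in bFGF. No group overlapped another. The log2 fold change between bFGF and OIM was 0.47 (standard error 0.042, adjusted p = 4.05e-09 in edgeR), also under the limit. It was 0.51 without OIM replicate 2, and 0.70 with library totals in place of TMM, and SUN2 was then called. SUN1 too was called with library totals, at 0.58.

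SYNE1 (chr1:13715644-14201711, plus strand), which encodes nesprin-1, a giant actin-binding protein of the outer nuclear membrane, was the only one of the 10 to fall by the calling rule. It stood at 336, 334 and 327 CPM in control, 329.7, 327 and 337 CPM in OIM, and 137, 145 and 145 CPM in bFGF. The bFGF libraries lay far below the other 6, which overlapped. SYNE1 was 2.33-fold lower in bFGF than in OIM (log2 fold change -1.22, standard error 0.036, adjusted p = 1.58e-16 in edgeR).

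SYNE2 (chr1:193909563-194352550, minus strand), which encodes the related giant protein nesprin-2, moved the other way. It had 94.4, 93.4 and 96.7 CPM in control, 90.3, 113 and 98.5 CPM in OIM and 161, 161 and 167 CPM in bFGF. The bFGF libraries were again set apart, and OIM replicate 2 was the highest of the rest. SYNE2 was 1.62-fold higher in bFGF than in OIM (log2 fold change 0.70, standard error 0.057, adjusted p = 1.15e-09 in edgeR). Its span shares 580 bases, exons included, with SGPP1 on the opposite strand, which averaged 34.1, 37.9 and 45.4 CPM in control, OIM and bFGF. Whether the counting used strand is not given in the sources used here, so reads of that stretch cannot be assigned with certainty. The same doubt holds where non-coding genes on the opposite strand share bases with SUN1 (22426), SYNE1 (2903), SYNE2 (13155), SYNE3 (15693) and LMNB1 (1126). These are absent from the gene rows, so overlap of exons was not assessed. SYNE3 also shares 715 bases, exons included, with LOC110261759, which had at most 8 counts in a library.

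SYNE3 (chr7:116666238-116770305, minus strand) encodes nesprin-3, the plectin-binding member. Its levels were 39.0, 36.2 and 36.3 CPM in control, 33.6, 43.7 and 33.0 CPM in OIM and 70.3, 72.3 and 77.9 CPM in bFGF. The control range lay inside the OIM range, and every bFGF library was above both. SYNE3 was 2.00-fold higher in bFGF than in OIM (log2 fold change 0.997, standard error 0.079, adjusted p = 7.90e-10 in edgeR). Counts per gene do not separate the giant nesprins from their short isoforms.

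Between OIM and control, 0 of the 10 genes were called, where 1.49% of all genes were called higher and 0.864% lower, and DESeq2 also called 0. At an unadjusted p under 0.05 in edgeR, 5 differed (26.2% of all genes), and 3 differed at the adjusted p alone (13.6% of all genes). LBR, SUN1 and SUN2 were these 3, and they were also the 3 whose OIM libraries lay wholly above the control libraries, as 28.8% of all genes had groups that did not overlap. Their log2 fold changes were small. LBR had 0.32 (standard error 0.062, adjusted p = 0.00133 in edgeR), SUN1 had 0.26 (standard error 0.043, adjusted p = 0.000287) and SUN2 had 0.24 (standard error 0.042, adjusted p = 0.000481). LMNB1, LMNB2, SYNE2 and SYNE3 depended on OIM replicate 2. The log2 fold change of LMNB1 was 0.25 (adjusted p = 0.143 in edgeR) with all libraries and 0.013 (adjusted p = 0.919) without OIM replicate 2. That of LMNB2 was 0.15 (adjusted p = 0.146 in edgeR) and 0.046 (adjusted p = 0.669). LMNA differed by -0.0048 (95% confidence interval -0.083 to 0.074) and SYNE1 by -0.0054 (-0.078 to 0.067). The intervals of EMD (-0.091 to 0.10), SYNE2 (-0.033 to 0.21) and SYNE3 (-0.18 to 0.16) also included 0. Without OIM replicate 2, SYNE2 was at -0.0048 and SYNE3 at -0.16 (adjusted p = 0.963 and 0.0785 in edgeR). The median of the 10 log2 fold changes was 0.12, against -0.0019 for all genes, and it was 0.030 without OIM replicate 2.

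Between bFGF and control, 7 genes were called higher and 1 lower, against 18.9% and 20.0% of all genes. This comparison shares the bFGF libraries with bFGF against OIM and the control libraries with OIM against control, so it is no separate evidence. SUN1 and SUN2 passed the fold limit here, with log2 fold changes of 0.62 (standard error 0.043, adjusted p = 8.91e-11 in edgeR) and 0.72 (standard error 0.042, adjusted p = 5.99e-12). LMNB1 was 5.80-fold higher, LMNB2 3.18-fold, LBR 2.91-fold, SYNE3 1.98-fold and SYNE2 1.72-fold, and SYNE1 was 2.34-fold lower. EMD had a log2 fold change of -0.46 (adjusted p = 3.44e-08 in edgeR) and LMNA one of 0.084 (adjusted p = 0.0527). At the adjusted p alone 9 of the 10 differed (70.2% of all genes), and 9 of the 10 did not overlap (73.7% of all genes). The median was 0.75, against -0.016 for all genes.

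**Figure D2:**
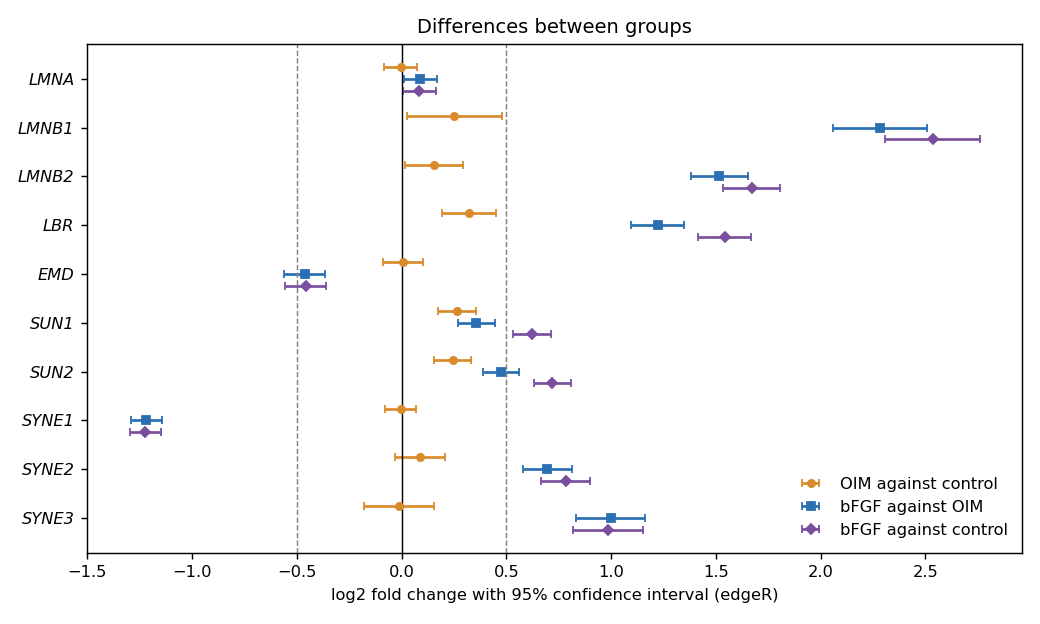
Log2 fold changes of the 10 genes in the 3 comparisons with 95% confidence intervals from edgeR, the dashed lines marking the fold limit of 0.5 in either direction. LMNB1 lies at 2.28 and SYNE1 at -1.22 in bFGF against OIM, and every point of OIM against control lies inside the limit.

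Levels of different genes were compared per kilobase of exon, using the union of the annotated exons. In control LMNA was far the highest at 197 CPM per kilobase, followed by EMD at 38.7, SUN2 at 24.98, SUN1 at 14.1, SYNE1 at 12.0, LMNB1 at 10.00, LBR at 8.19, LMNB2 at 6.75, SYNE3 at 3.91 and SYNE2 at 2.91. No neighbours in that order overlapped over the 3 libraries. OIM had the same order of means, with SYNE1 and LMNB1, and LMNB1 and LBR, overlapping. In bFGF LMNB1 came next to LMNA, at 58.0 against 209 CPM per kilobase. SUN2 followed at 41.1, EMD at 28.2, LBR at 23.8, SUN1 at 21.6, LMNB2 at 21.5, SYNE3 at 7.74, SYNE1 at 5.13 and SYNE2 at 5.00. Here SUN1 overlapped LMNB2, and SYNE1 overlapped SYNE2. With the longest or the median transcript length in place of the union, SYNE2 traded places with SYNE3 in control and OIM and with SYNE1 in bFGF.

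The shares of paralogs within the lamins and the nesprins differed in bFGF. Per kilobase, LMNA held 92.2% ± 0.387 of the lamin total in control, 91.1% ± 1.48 in OIM and 72.4% ± 0.143 in bFGF (SD, n = 3). The share of LMNB1 was 4.68% ± 0.353, 5.47% ± 1.19 and 20.1% ± 0.143, and that of LMNB2 was 3.16% ± 0.0450, 3.47% ± 0.288 and 7.45% ± 0.141, in the same order. Among the nesprins, SYNE1 held 63.7% ± 0.554, 63.3% ± 3.39 and 28.7% ± 0.656, and SYNE3 held 20.8% ± 0.620, 20.4% ± 2.42 and 43.3% ± 0.808. SYNE2 accounted for the remaining 15.5% ± 0.433, 16.3% ± 1.11 and 28.0% ± 0.516. The SUN proteins kept nearly the same proportions, with SUN2 at 64.0% ± 0.494, 63.6% ± 0.810 and 65.5% ± 0.773.

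**Figure D3:**
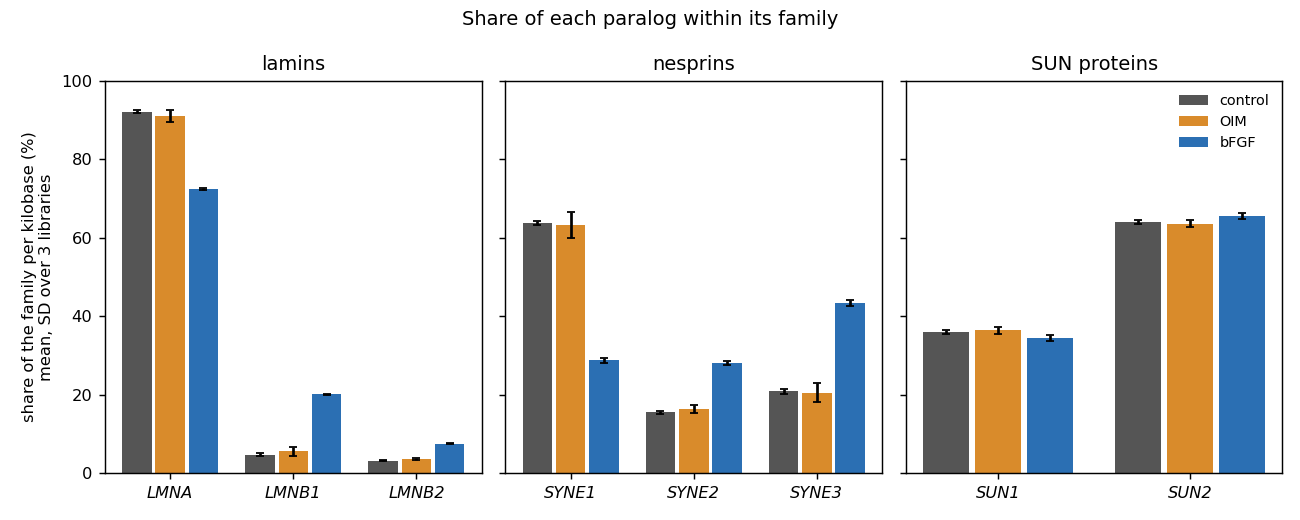
Share of each gene (%) within the lamins, the nesprins and the SUN proteins, from CPM per kilobase of exon, as mean and SD over 3 libraries. In bFGF the LMNA share is 72.4% against 91.1% in OIM, and the SYNE1 share is 28.7% against 63.3%.

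Ratios within a library do not depend on how libraries are scaled to each other. The log2 ratio of LMNA to LMNB1 was 1.85 ± 0.0120 in bFGF and 4.08 ± 0.322 in OIM (SD, n = 3), a difference of -2.23. Between bFGF and OIM, the ratio of LMNB1 to LMNB2 differed by 0.79, that of SYNE2 to SYNE1 by 1.92 and that of SUN2 to SUN1 by 0.12. None of these 4 overlapped between bFGF and OIM or between bFGF and control. With 3 libraries against 3 the two-sided exact permutation test cannot go below p = 0.1, which each bFGF comparison reached (adjusted p = 0.15 over 12 tests), so this test could not pass 0.05. Between OIM and control the differences were -0.22, 0.073, -0.020 and 0.085 for LMNA to LMNB1, LMNB1 to LMNB2, SUN2 to SUN1 and SYNE2 to SYNE1, with overlapping libraries and exact permutation p of 0.4, 0.6, 0.6 and 0.7. Without OIM replicate 2 the ratio of LMNA to LMNB1 differed by -0.037, that of LMNB1 to LMNB2 by -0.032 and that of SYNE2 to SYNE1 by -0.011, so these 3 rested on that library.

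Proliferation genes moved with the B-type lamins. In bFGF against OIM, 26 of the 26 tested were called higher, beside 17.7% of all genes, with a median log2 fold change of 1.75. Among them were MCM3 (2.25), MCM4 (2.03) and MCM2 (1.98), subunits of the replicative helicase, and the transcription factor E2F1 (1.95). In OIM against control 2 of the 26 were called higher, MCM3 (0.52) and E2F1 (0.52), beside 1.49% of all genes, with a median of 0.24. Without OIM replicate 2 that count was 0 (11 at an unadjusted p, edgeR) and the median 0.088, and DESeq2 with all libraries called 1, E2F1. OIM replicate 2 exceeded the mean of the other OIM libraries by a ratio of 1.53 for LMNB1, 1.31 for SYNE3, 1.23 for LMNB2, 1.20 for SYNE2 and 1.12 for LBR, against a median ratio of 1.33 for the proliferation list and 0.999 for all genes. SYNE1 (0.981) and EMD (0.910) were not highest in it. The part of proliferation in these results was not tested.

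**Figure D4:**
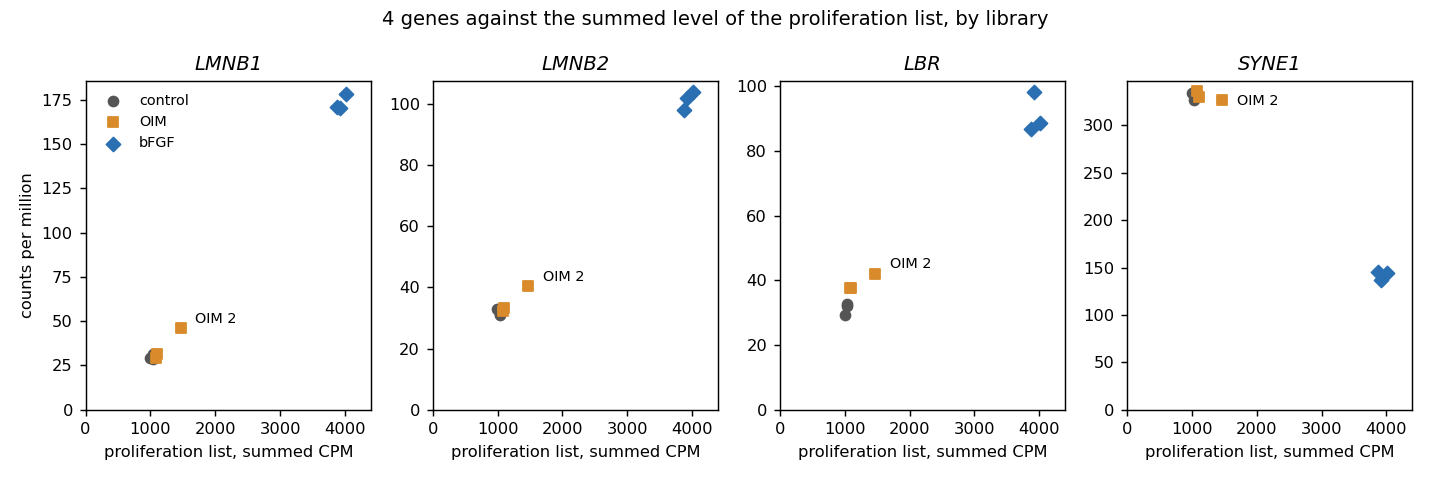
CPM of LMNB1, LMNB2, LBR and SYNE1 (each panel from 0) against the summed CPM of the 26 proliferation genes, one point per library. The bFGF libraries sum to 3869 to 4005 CPM and OIM replicate 2, marked, to 1470 CPM, and it is the highest OIM library in the first 3 panels.

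The genes closest in pattern over the 9 libraries were found by Pearson's r of log2 CPM, which is a description because the libraries fall into clusters by treatment. For LMNB1 they were MYBL2, NCAPD3 and SMC1A (r = 0.9994, 0.9994 and 0.9993). For SUN2 they were LARP1, PLXNA2 and CTPS1 (r = 0.9968, 0.9957 and 0.995), and for LMNA, EPN1, NYAP1 and CDA (r = 0.9706, 0.9424 and 0.9288).

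The rest of the nuclear envelope was described with lists. Of 26 nuclear pore genes tested, 19 were called higher and 0 lower in bFGF against OIM, beside 17.7% and 18.4% of all genes, with a median log2 fold change of 0.81. NDC1 (1.60), a membrane nucleoporin, AAAS (1.42) and NUP43 (1.26) were among those that rose, as was NUP210 (2.33), at 0.271 CPM in OIM and 1.37 CPM in bFGF. Of 13 LEM-domain and other inner membrane genes, 6 were called higher and 1 lower, beside the same shares of all genes, with a median of 0.40. NDC1, TMPO (1.51), which encodes the lamin-binding LAP2 proteins, and NEMP1 (1.47) rose, while TMEM38A (-1.77), an intracellular cation channel, fell. Of 8 chromatin tethers and lamin binding partners, MLIP (1.003), a protein that binds A-type lamins, and CBX5 (0.77), which encodes the heterochromatin protein that LBR binds, were called higher (2 of 8, beside 17.7% of all genes), and BANF1 and PRR14 had log2 fold changes of 0.33 and 0.24.

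Of 11 cytoskeletal partners of the LINC complex, 2 were called higher and 3 lower, with a median of -0.014, beside 17.7% and 18.4% of all genes. Without OIM replicate 2 KLC2, a kinesin light chain, was called higher too, which makes 3 and 3. NUP153 (0.58), a pore protein that the nuclear pore list also holds, was 1 of the 2 called higher, a name given after its value was seen. The formin FHOD1 (1.34), which binds nesprin-2, rose as well, and the actin crosslinkers FLNA (-0.95), ACTN1 (-0.82) and ACTN4 (-0.60) fell. Beside SYNE1 and these genes, 6 of 6 myofibroblast and smooth muscle markers were called lower (median -3.28), their sum reaching 1616 to 1795 CPM in bFGF and 9793 to 10305 CPM in control. In OIM it was 10054 CPM in replicate 2 and 13244 and 13316 CPM in replicates 1 and 3, so that library stood apart on these genes too. In OIM against control MYH11 and DES were called higher, 2 of the 6, beside 1.49% of all genes. Without OIM replicate 2 there were 3, with CNN1. Their part in the fall of SYNE1 was not tested. Of 7 lamin maturation enzymes, NARF (-1.43), which binds prelamin A and is not itself an enzyme of that pathway, was called lower and 0 were called higher, 1 of 7 beside 18.4% of all genes. ICMT, the carboxyl methyltransferase of farnesylated proteins, PGGT1B and ZMPSTE24, the protease that matures prelamin A, were not called, at 0.25, -0.24 and -0.089 on the log2 scale.

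With library totals in place of TMM the log2 fold changes of all genes moved upward together in bFGF against OIM, their median going to 0.22 and the genes called higher from 2420 to 3733 of 13662. The list counts moved with them. Nuclear pore genes went from 19 to 23 called higher, the inner membrane genes from 6 to 7, with LEMD3, and the tethers from 2 to 3, with BANF1. The cytoskeletal partners went to 3 higher and 2 lower with a median of 0.21, which is no more than the shift of all genes, as KLC2 was called and ACTN4 was not. Over the 80 genes tested in the nuclear envelope lists the counts went from 28 higher and 7 lower to 37 and 5, and without OIM replicate 2 to 29 and 6.

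TOR3A (0.58) was the 1 of 6 torsin genes called higher and VPS4B (-0.50), an ATPase of membrane scission, the 1 of 9 ESCRT-III genes called lower, each with 0 called the other way, shares at or below the 17.7% and 18.4% of all genes. With library totals TOR1A was called higher as well. VPS4B sat at the fold limit and was not called by DESeq2, with library totals or without OIM replicate 2, and with library totals CHMP7 was called higher in its place. Of the other SUN and KASH genes, CLMN (-1.28) was called lower and SPAG4 (0.46) was not called, while SUN3 and SUN5 had 0 counts in all libraries. In OIM against control 0 of the 80 tested genes of these nuclear envelope lists were called, and DESeq2 also called 0. Among all genes tested 1.49% were called higher and 0.864% lower. Before adjustment, 13 of the 80 had p under 0.05 (edgeR), beside 26.2% of all genes, so the 13 are no sign of an OIM difference particular to these lists.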

How the data were processed

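RNA of PVICs in 3 groups of 3 libraries was sequenced, with groups and replicate numbers from the sample labels. Submitters' processing notes list Trimmomatic, HISAT2 and StringTie, whereas the methods of the study name Cutadapt and STAR. Both name the same build, Sscrofa11.1 (susScr11). The library kits differ as well, removal of ribosomal RNA in the labels and poly-A selection in the methods. The counting program is not given in the sources used here. The authors deposited whole-number counts per gene and per circRNA junction, and estimated counts (expected counts) of non-coding transcripts, which were not used here, as were 19 unnamed columns.

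Gene counts were tested in edgeR 4.0.16 (R 4.3.3) after filterByExpr and TMM, with 1 quasi-likelihood fit on 3 groups (6 residual degrees of freedom) and Benjamini-Hochberg adjustment. The standard error is the log2 fold change divided by the square root of F. The test was checked on simulated counts. The members and the gene lists were chosen with earlier results of these data known. All 10 members are named, and of each other list up to 4 genes with the largest change between bFGF and OIM. VIM and PDGFRA (cell type), PECAM1 and CDH5 (defining endothelial genes), and LEMD3, KLC2, NUP153, TOR1A and CHMP7 (changed calls) were named outside this rule, after their values were seen. Gene positions, exon lengths and upstream sequence come from the RefSeq annotation of Sscrofa11.1, and the upstream window of 1 gene is not reported here. Alternatives were DESeq2 1.42.0, median-of-ratios factors, library totals, other filters, 2-group fits, a replicate block, other thresholds, other lengths and leaving out each library. Counts of replicates differed beyond counting error (mean chi-square per gene 4.62 to 18.8), so each library counts once. The alternatives for the gene lists were chosen after seeing the data.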

Additional observations from a re-analysis of the deposited data

How the results depend on the processing

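The log2 fold change of each of the 10 genes was recomputed under 17 settings. For bFGF against control 170 of 170 values kept their direction and their side of the threshold, and for bFGF against OIM 167 of 170 did, the other 3 being SUN1 (0.58) and SUN2 (0.70) with library totals and SUN2 (0.51) without OIM replicate 2, which were then called. For OIM against control 156 of 170 did, and 14 changed sign. SYNE1 was at 0.0012 and LMNA at 0.0019 with median-of-ratios factors, and at 0.0012 and 0.0019 in DESeq2. With single libraries left out, SYNE1 ran from -0.018 to 0.0052, SYNE3 from -0.16 to 0.060, LMNA from -0.025 to 0.025, EMD from -0.043 to 0.051 and SYNE2 from -0.0048 to 0.16, and the log2 ratios of LMNA to LMNB1 from -0.32 to -0.037, LMNB1 to LMNB2 from -0.032 to 0.14, SUN2 to SUN1 from -0.046 to 0.0049 and SYNE2 to SYNE1 from -0.011 to 0.16. The cause was not tested. The number of members called went to 3 (OIM against control) and 10 (bFGF against OIM) without a fold limit, and with a log2 limit of 1 it was 4 both in bFGF against OIM and in bFGF against control, in place of 6 and 8. The number of genes called was 1853, 9203 and 9590 without a fold limit and 91, 2461 and 2756 with a log2 limit of 1 for OIM against control, bFGF against OIM and bFGF against control, in place of 321, 4939 and 5323, and 549 at an unadjusted p for OIM against control. Under either other transcript length 24 of 30 places in the order were kept. With library totals the median of all genes shifted to 0.22 in bFGF against OIM and the share of calls that were higher went from 49.0% to 68.8%, while in bFGF against control it went from 48.5% to 68.1%.

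Libraries with the same replicate number did not deviate together (correlations of -0.032 to 0.0035 over 9 pairs). Deviations were taken within groups of 3 libraries, so this does not show whether such libraries share an origin. With a replicate block 309, 4917 and 5285 genes and 0, 6 and 8 members were called, and the adjusted p of LMNA in bFGF against OIM was 0.0550 (edgeR). With single libraries left out, the OIM against control differences of SUN1 (0.23 to 0.28), SUN2 (0.21 to 0.28) and LBR (0.26 to 0.35) kept an adjusted p of at most 0.0122 in edgeR.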

Other observations

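Of 6179 circular RNA rows, 3 lie inside these genes by their coordinates, with both ends at annotated exon boundaries. They lie in SYNE1 (chr1:14038312-14052339), LBR (chr10:13410179-13411123) and LMNB1 (chr2:129832476-129852005). The SYNE1 junction had 4 reads in bFGF replicate 2, the LBR junction 4 reads in bFGF replicate 3, and the LMNB1 junction 3 reads in bFGF replicate 2. Each had 0 reads in the other 8 libraries, so none was seen in more than 1 library, and no comparison between groups was made.

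Markers of other cell types were also summed. The 10 macrophage and leukocyte genes summed to 14.7 to 18.3 CPM in control, 15.6 to 17.0 CPM in OIM and 9.11 to 9.94 CPM in bFGF, and CD3E had 0 counts in all libraries. In edgeR, bFGF against OIM had 3 of 12 valve interstitial and fibroblast genes called higher and 5 lower, beside 17.7% and 18.4% of all genes. With library totals they were 3 and 3, where 3733 and 1694 of the 13662 genes tested were called. POSTN (1.46) rose, and COL1A1 (-1.34), COL1A2 (-1.004) and DCN (-0.99) fell on the log2 scale. Of 6 osteoblast genes, 3 had enough counts for testing. SPP1 (-1.86) was called lower and BGLAP (1.06) higher, 1 each beside 18.4% and 17.7% of all genes. RUNX2 had a log2 fold change of -0.12. BGLAP was low, at 0.544 CPM in OIM and 1.15 CPM in bFGF (adjusted p = 0.0232 in edgeR). The study reports the other direction for BGLAP (lower in qPCR) and for SPP1 transcription (higher), and lower RUNX2 in qPCR. Its western blots gave less osteopontin, the SPP1 protein, and less RUNX2 protein.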
